A study of Mus musculus with 3 samples.

Results

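The mRNAs of the mitochondrial ribosomal proteins were examined in bisulfite-converted mRNA of mouse embryonic stem cells. The members were all listed transcripts whose gene symbol begins with Mrpl or Mrps. They came to 83 of the 15021 listed RefSeq transcripts and to 78 of 13224 named genes, of which 49 carry an Mrpl and 29 an Mrps symbol. All 78 protein-coding genes of these names in the mouse reference table were listed. The rule used names only, so no measured value decided whether a gene was a member. It was set with earlier results of these data known.

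The 3 libraries form 1 group: embryonic stem cells of J1 background with the genotype Tet1-/-,Tet2-/-,Tet3-/-, grown on fibroblast feeders that were removed by serial plating before poly(A) RNA was prepared. The knockout is shared by every library and no wild-type sample was used here, so all comparisons are between cytosines and transcripts within these libraries. Nothing in the labels says that the libraries came from separate cultures, and the spread between them may be technical. Bisulfite turns unmodified cytosine into uracil, and the measured quantity is the unconverted share, the percentage of reads that still show cytosine. That share counts 5-methylcytosine, 5-hydroxymethylcytosine and failed conversion together.

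Mitochondria carry their own ribosome, which makes the few respiratory-chain subunits that mitochondrial DNA encodes. Its ribosomal RNAs come from the mitochondrial genome, but every one of its proteins is encoded in the nucleus, translated in the cytosol and imported. Many of these proteins have bacterial counterparts and others are found only in mitochondria. The symbols follow the subunits only in part: the products of Mrps30 and Mrps18a sit in the large subunit, Mrpl58 is a peptidyl-tRNA hydrolase built into it, and the product of Mrps36 works with a dehydrogenase complex of the citric acid cycle.

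Summed coverage was 151362866, 142608298 and 139884444 in replicates 1, 2 and 3, so that a read spanning several cytosines enters several times, and the library-wide unconverted share was 1.53%, 1.45% and 1.41%. All 11 stem cell markers examined were listed and took 0.569% ± 0.00571 of coverage (SD, n = 3). Fibroblast markers took 0.0470% ± 0.00896, with 6 of 9 listed. The collagen genes Col1a1, Col1a2 and Col3a1 were among the listed ones, while Dcn, Lum and Postn were not listed. The part of remaining feeder cells in any result was not tested.

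Sequence was at hand for the first 50 bases of many transcripts, from RefSeq's promoter table of build GRCm38.p6, which holds 69 of the 78 genes. Where the accession version was the same in both sources, 369 of 373 listed member cytosines up to position 50 fell on a C of that sequence, and all did in 31 of 32 transcripts. Where the versions differed, 90 of 277 did. In the 31 matched members, the windows below are centred on the most deeply read testable cytosine between positions 11 and 40, for the 6 transcripts with the most reads there, since these show best how far conversion went. The capital marks the measured cytosine, and each window has 21 bases, 5′ to 3′ on the strand of the gene.
Mrps26, position 40, chr2:130563786-130563806 (+): gcgctctgaaCcgcctggcgg
Mrpl27, position 40, chr11:94653820-94653840 (+): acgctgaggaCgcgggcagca
Mrpl16, position 40, chr19:11770444-11770464 (+): cctgacccggCagcacacgcg
Mrpl52, position 33, chr14:54426931-54426951 (+): gcatggctgcCttagggacct
Mrps27, position 36, chr13:99344811-99344831 (+): tcccatggtgCggtgtgggat
Mrpl57, position 39, chr14:57826267-57826287 (+): ggtcgggggaCgcggagcgcc

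Almost every read at these cytosines was converted. In Mrps26, a mitochondria-specific protein of the small subunit, 2 of 113, 0 of 112 and 0 of 118 reads were unconverted in replicates 1, 2 and 3. Mrpl16, a conserved large-subunit protein, had 0 of 96, 1 of 111 and 0 of 106. In Mrpl52 the counts were 0 of 81, 2 of 69 and 1 of 86. All 3 sites stayed below 3% in every library. Mrps27, whose product belongs to the small subunit, had 1 of 81, 1 of 75 and 0 of 56 reads, and Mrpl57 had 1 of 61, 4 of 80 and 1 of 49. Position 40 of Mrpl27, a protein near the catalytic centre of the large subunit, was the highest of the 6, with 5 of 108, 7 of 121 and 2 of 106 reads, a mean of 4.10% ± 2.00 (SD, n = 3). It did not pass the combined binomial test described next (adjusted p = 0.198, Benjamini-Hochberg over all testable cytosines).

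The first question was which cytosines stayed unconverted above background. A cytosine was testable with 10 or more reads in each library. In each library an exact binomial test (one-sided) asked whether its unconverted reads exceeded the library-wide share. Fisher's combination joined the 3 results, with Benjamini-Hochberg adjustment over all 1639820 testable cytosines. Sites were called candidates if the adjusted p was below 0.05, the mean share was 10% or more, and every library exceeded its own background. These p-values take reads as independent, and no spread between libraries enters them. The members had 11330 testable cytosines in 76 genes, at a median coverage of 38, 36 and 37 reads. At that depth a count of 0 in a single library allows a share of up to 7.89%, 8.33% and 8.11% in that library. The test joins 3 libraries, so these are not its detection limits. The single-library limits, like all intervals here, cover counting error only.

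Only 4 member cytosines were candidates, 0.0353% of those testable, where the background over all transcripts was 0.0473%. That is 35.3 per 100000 cytosines (exact 95% interval 9.62 to 90.4) against 47.3 per 100000 in the other transcripts. The members' share of candidates was thus near the background, and the interval spans it. All 4 were weak: the highest lay at 12.1%, and none reached 20%. Over all 1639820 testable cytosines only 86 candidates did, or 5.24 per 100000. An absence among the 11330 member cytosines thus does not set the members apart. They fell in 4 genes, Mrps9, Mrpl27, Mrpl54 and Mrpl37, on chromosomes 1, 11, 10 and 4.

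Position 93 of Mrps9 (NM_023514.4), a small-subunit protein conserved from bacteria, had 2 of 33, 3 of 27 and 4 of 21 unconverted reads in replicates 1, 2 and 3, a mean of 12.1% ± 6.55 (SD, n = 3, adjusted p = 0.00571, combined exact binomial test). Replicate 3 was the highest, and replicate 1 alone had an unadjusted p of 0.0908 in the exact test. Pooled over libraries the share was 11.1% (exact 95% interval 5.21% to 20.0%). Mrps9 overlaps Gm23126 in the reference table.

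Position 674 of Mrpl27 (NM_053161.2) had 3 of 34, 4 of 37 and 5 of 35 unconverted reads, or 11.3% ± 2.76 (SD, n = 3, adjusted p = 0.000394, same exact test). It was the only one of the 4 sites with an unadjusted p below 0.05 in each library, and its 3 shares, 8.82%, 10.8% and 14.3%, were the closest to each other. The 3 testable cytosines within 10 nt of it reached at most 0.901%. It lies near the 3′ end of the listed transcript, whose last listed cytosine is at 704. The reference table holds a pseudogene, Mrpl27-ps, and an overlapping gene, Eme1. Whether reads at this position came from either was not tested. Overlap was taken over whole gene spans on either strand, and 25 of the 78 member genes overlap another annotated gene.

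Position 78 of Mrpl54 (NM_025317.2), a mitochondria-specific protein of the large subunit, had 7 of 41, 2 of 33 and 3 of 32 unconverted reads, or 10.8% ± 5.65 (SD, n = 3, adjusted p = 0.000270, same exact test). Replicate 1 stood at 17.1% and the others at 6.06% and 9.38%; without replicate 1 the mean fell to 7.72% and the adjusted p of the exact test rose to 0.636. This was the only candidate with a listed cytosine directly on both sides.

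Position 1418 of Mrpl37 (NM_025500.2), also specific to the large subunit of mitochondria, had 2 of 47, 4 of 21 and 3 of 33 reads, or 10.8% ± 7.54 (SD, n = 3, adjusted p = 0.0135, same exact test). Replicate 2 was far above replicate 1, which stood at 4.26%. Without replicate 2 the mean was 6.67% and the adjusted p of the exact test 0.921, and without replicate 3 they were 11.7% and 0.105. Leaving out replicate 2 also ended the call of Mrps9 (12.6%, exact test, adjusted p = 0.0670). Leaving out replicate 3 ended those of Mrps9 (8.59%, adjusted p = 0.557) and Mrpl27 (9.82%, adjusted p = 0.0941, exact test). Mrpl37 overlaps Cyb5rl in the reference table. Each of the 4 candidates thus lost its call when 1 library was left out, and 0 of them passed when the highest of the 3 p-values was adjusted in place of their combination.

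**Figure D1:**
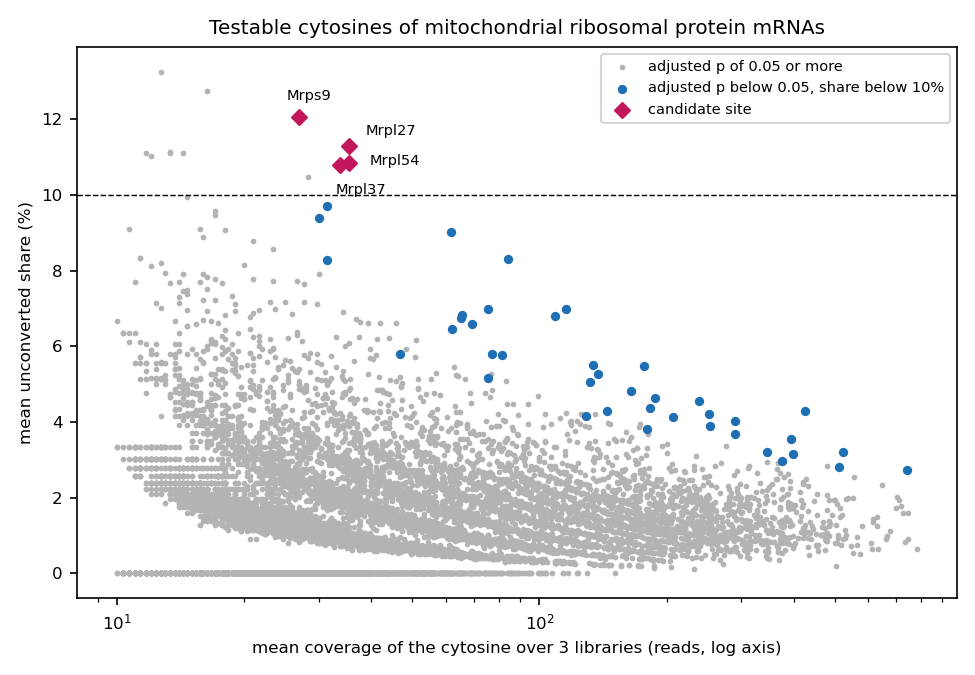
Mean unconverted share (%) of each of the 11330 testable member cytosines against its mean coverage in reads (log axis), with 1 point per cytosine averaged over the 3 libraries. The 4 candidates (diamonds) sit just above the dashed 10% line at 27 to 35.3 reads, and the 40 other cytosines with an adjusted p below 0.05 (blue) lie lower and mostly at higher coverage.

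The 2 member cytosines with the highest mean share were covered by few reads and were not candidates. Position 1101 of Mrpl19 had 1 of 15, 3 of 13 and 1 of 10 unconverted reads, or 13.2% ± 8.67 (SD, n = 3, adjusted p = 0.189, combined exact binomial test). Position 732 of Mrpl12, whose product also binds the mitochondrial RNA polymerase, had 3 of 14, 1 of 16 and 2 of 19, or 12.7% ± 7.83 (adjusted p = 0.0956, same exact test). A second Mrpl19 cytosine, at position 160, had 4 unconverted of 40 reads pooled and a mean of 11.1% ± 7.69. In all, 12 member cytosines reached 10% and 8 of them did not pass. Just outside the rule, and named after their values were seen, were position 11 of Mrpl13 (10.5% ± 5.38, adjusted p = 0.0518) and position 828 of Mrpl38 (9.70% ± 3.42, adjusted p = 0.0240, both by the same exact test over n = 3 libraries).

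Whatever their level, 44 member cytosines in 29 genes had an adjusted p below 0.05, or 0.388%, against a background of 0.499% over all transcripts. Of these, 20 lay below 5% and 20 between 5% and 10%, with a median of 5.22%. Only 13 of the 44 had an unadjusted p below 0.05 in each library. The lowest adjusted p belonged to position 464 of Mrpl54, with 10 of 371, 22 of 426 and 24 of 478 unconverted reads, or 4.29% ± 1.39 (SD, n = 3, adjusted p = 3.32e-09, combined exact binomial test). Position 492 of the same mRNA had 8 of 134, 6 of 190 and 15 of 206, or 5.47% ± 2.11. Mrpl54 held 4 such cytosines, the most of any member. A single read may span several of its positions 464, 492 and 497, so these are not separate counts.

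The next sites varied more between libraries. Position 60 of Mrpl20, a conserved large-subunit protein, had 2 of 126, 7 of 94 and 15 of 126 unconverted reads, or 6.98% ± 5.17 (SD, n = 3), with replicate 3 far above replicate 1. Position 972 of Mrpl15 had 4 of 85, 9 of 87 and 8 of 81, or 8.31% ± 3.13. Position 873 of Mrpl45, which anchors the ribosome towards the inner membrane, had 5 of 193, 18 of 259 and 11 of 266, or 4.56% ± 2.21. All 3 lay below 10% on average, at coverages above the members' median.

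The deepest member cytosines gave the closest limits. With 100 or more reads in each library, 1835 member cytosines had a median share of 1.32% and a highest share of 5.52%, at position 143 of Mrps26. Only 4 of them, or 0.218%, reached 5%, against 0.463% of the 206607 cytosines of the other transcripts at that depth. With 200 or more reads, none of 622 did, and the highest was the 4.29% of Mrpl54. The corresponding maximum in the other transcripts was 42.2% among 89016 cytosines, a far larger number.

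The second question was whether any whole mRNA stood apart from its library. Over testable cytosines, the members together had an unconverted share of 1.53%, 1.44% and 1.42% in replicates 1, 2 and 3, and the other transcripts 1.53%, 1.45% and 1.40%. The difference, members minus others, was 0.00692 percentage points ± 0.0138 (SD, n = 3), above 0 in 2 libraries and below in 1, and smaller than its own spread. With 3 libraries the smallest p of an exact sign-flip test is 0.25, so no p is given. Among 73 members with at least 20 testable cytosines, the transcript share had a median of 1.45% with quartiles of 1.39% and 1.54%. In the 7440 other transcripts of that size the median was 1.45%, with quartiles of 1.35% and 1.56%. The members lay above their library's share in all 3 libraries in 14 cases (19.2%, others 20.5%) and below it in 16 (21.9%, others 25.5%).

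Single transcripts were tested with limma on the log2 ratio of transcript share to library share over the 3 libraries, with a variance trend on coverage and Benjamini-Hochberg adjustment over all 7513 transcripts. Of the 73 members, 4 passed as higher, where the background was 6.43%, and 4 as lower, where it was 8.33%. The members called thus were no more frequent than that background, at 5.48% in each direction. All 8 carry an Mrpl symbol. Of the 25 Mrps transcripts 0 passed, with 3 higher and 3 lower at an unadjusted limma p below 0.05. At that limit 872 of all 7513 transcripts were higher and 1211 lower. The difference between Mrps and Mrpl transcripts was not tested. With no variance trend, limma called 0 of the 7513 transcripts, while 11 members had an unadjusted p below 0.05, so these calls rest on the trend.

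Mrpl40, a large-subunit protein specific to mitochondria, had the highest share of the 4, with 1.76%, 1.85% and 1.88% in replicates 1, 2 and 3, above the library share each time (log2 ratio 0.32 ± 0.0603 SE, limma adjusted p = 0.000276, n = 3). Mrpl2, a conserved protein at the heart of the large subunit, had 1.84%, 1.63% and 1.69% (log2 ratio 0.23 ± 0.0527 SE, adjusted p = 0.00278, limma). For Mrpl57 the shares were 1.82%, 1.66% and 1.61% (0.21 ± 0.0453 SE, adjusted p = 0.00144, limma). Mrpl4, another conserved protein, followed with 1.69%, 1.62% and 1.58% (0.16 ± 0.0454 SE, adjusted p = 0.0171, limma). Mrpl4 lost its call without any 1 of the 3 libraries (adjusted p = 0.0587 to 0.0719, limma). None of these 4 mRNAs held a candidate. Mrpl2 and Mrpl57 overlap Klc4 and Ska3 in the reference table.

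The lowest share among all 73 was that of Mrpl13, a conserved large-subunit protein, with 1.31%, 0.931% and 1.01% (log2 ratio -0.44 ± 0.0736 SE, limma adjusted p = 6.03e-05, n = 3). This mRNA also held the cytosine at position 11 that fell just short of a candidate. Mrpl28 had 1.27%, 1.27% and 1.29%, nearly constant while the library share moved (log2 ratio -0.20 ± 0.0416 SE, adjusted p = 0.00129, limma). Mrpl36, a very small conserved protein, had 1.37%, 1.29% and 1.24% (-0.17 ± 0.0587 SE, adjusted p = 0.0476, limma). Mrpl23, which lines the exit of the peptide tunnel, had 1.48%, 1.22% and 1.28% (-0.14 ± 0.0490 SE, adjusted p = 0.0459, limma). Without replicate 2 the ratio of Mrpl23 was -0.09 (limma adjusted p = 0.399), and it also lost its call without replicate 3 (adjusted p = 0.0975, limma). Leaving out any 1 library ended the call of Mrpl36 (adjusted p = 0.132 to 0.154, limma). A pseudogene of Mrpl23, Mrpl23-ps1, is in the reference table.

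**Figure D2:**
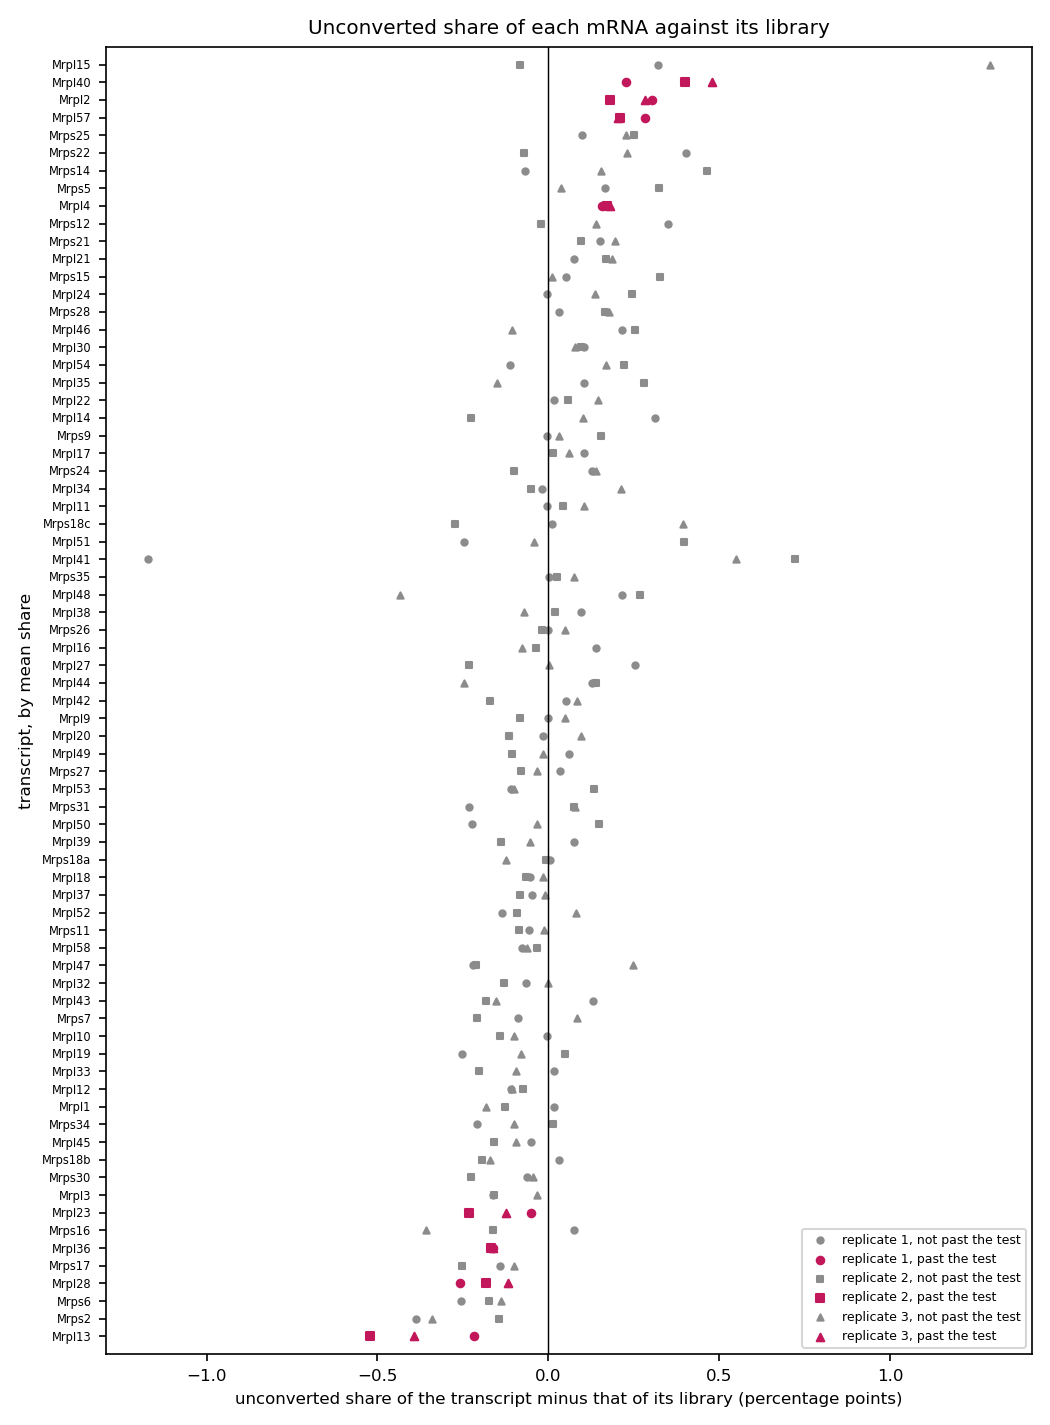
Unconverted share of each of 73 member transcripts minus the share of its library, in percentage points, with 1 point per replicate and transcripts ordered by mean share. The 4 transcripts past the limma test on the high side (Mrpl40, Mrpl2, Mrpl57, Mrpl4) and the 4 on the low side (Mrpl13, Mrpl28, Mrpl36, Mrpl23) have all 3 points on 1 side of 0, while thinly covered mRNAs such as Mrpl15 and Mrpl41 scatter widely.

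Transcript shares of the members agreed poorly between libraries. Across the 73 transcripts, Pearson's r was -0.11, 0.12 and 0.28 and Spearman's rho 0.21, 0.26 and 0.32 for replicates 1 and 2, 1 and 3, and 2 and 3. The points share library and depth and are not independent replicates. The widest spread was in Mrpl41, with 28 testable cytosines and 0.362%, 2.17% and 1.95%, and the narrowest in Mrps6, with 1.28%, 1.28% and 1.27%.

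Read depth, in contrast, was close to constant between libraries. The members took 0.545% ± 0.0165 of all coverage (SD, n = 3). Across the same 73 transcripts, the mean coverage per listed cytosine correlated at a Pearson's r of 0.99 in each pair of libraries, and its coefficient of variation over the libraries had a median of 5.63%. The level ran from 10.3 to 139.8 reads per listed cytosine with a median of 42.5. It is only a rough measure of abundance, since cytosines with fewer than 3 reads are not listed. In bulk RNA, fewer cells with a transcript and less of it per cell cannot be told apart.

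Mrpl57 stood highest, with 131.8, 140.7 and 146.9 reads per listed cytosine in replicates 1, 2 and 3. Mrpl23 followed with 127.6, 125.3 and 131.1, and Mrpl18, a conserved protein of the central protuberance, with 118.6, 118.5 and 111.5. The ranges of these 3 mRNAs did not overlap. Mrpl33 had 102.6, 115.5 and 127.0 reads, which overlapped those of Mrpl23 and Mrpl18.

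By reads summed over testable cytosines, which also grow with transcript length, the 10 first were Mrpl28, Mrps30, Mrps34, Mrps26, Mrpl18, Mrpl12, Mrpl57, Mrpl4, Mrpl37 and Mrpl45. They had the most reads behind their transcript shares, which ran from 1.28% ± 0.0106 in Mrpl28 to 1.70% ± 0.108 in Mrpl57 (SD, n = 3). Between them lay Mrps30 at 1.35% ± 0.123, Mrpl45 at 1.36% ± 0.104, Mrps34 at 1.36% ± 0.0870, Mrpl12 at 1.37% ± 0.0634, Mrpl37 at 1.42% ± 0.0597, Mrpl18 at 1.42% ± 0.0532, Mrps26 at 1.47% ± 0.0521 and Mrpl4 at 1.63% ± 0.0527. One of these 10 mRNAs, Mrpl37, held a candidate.

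**Figure D3:**
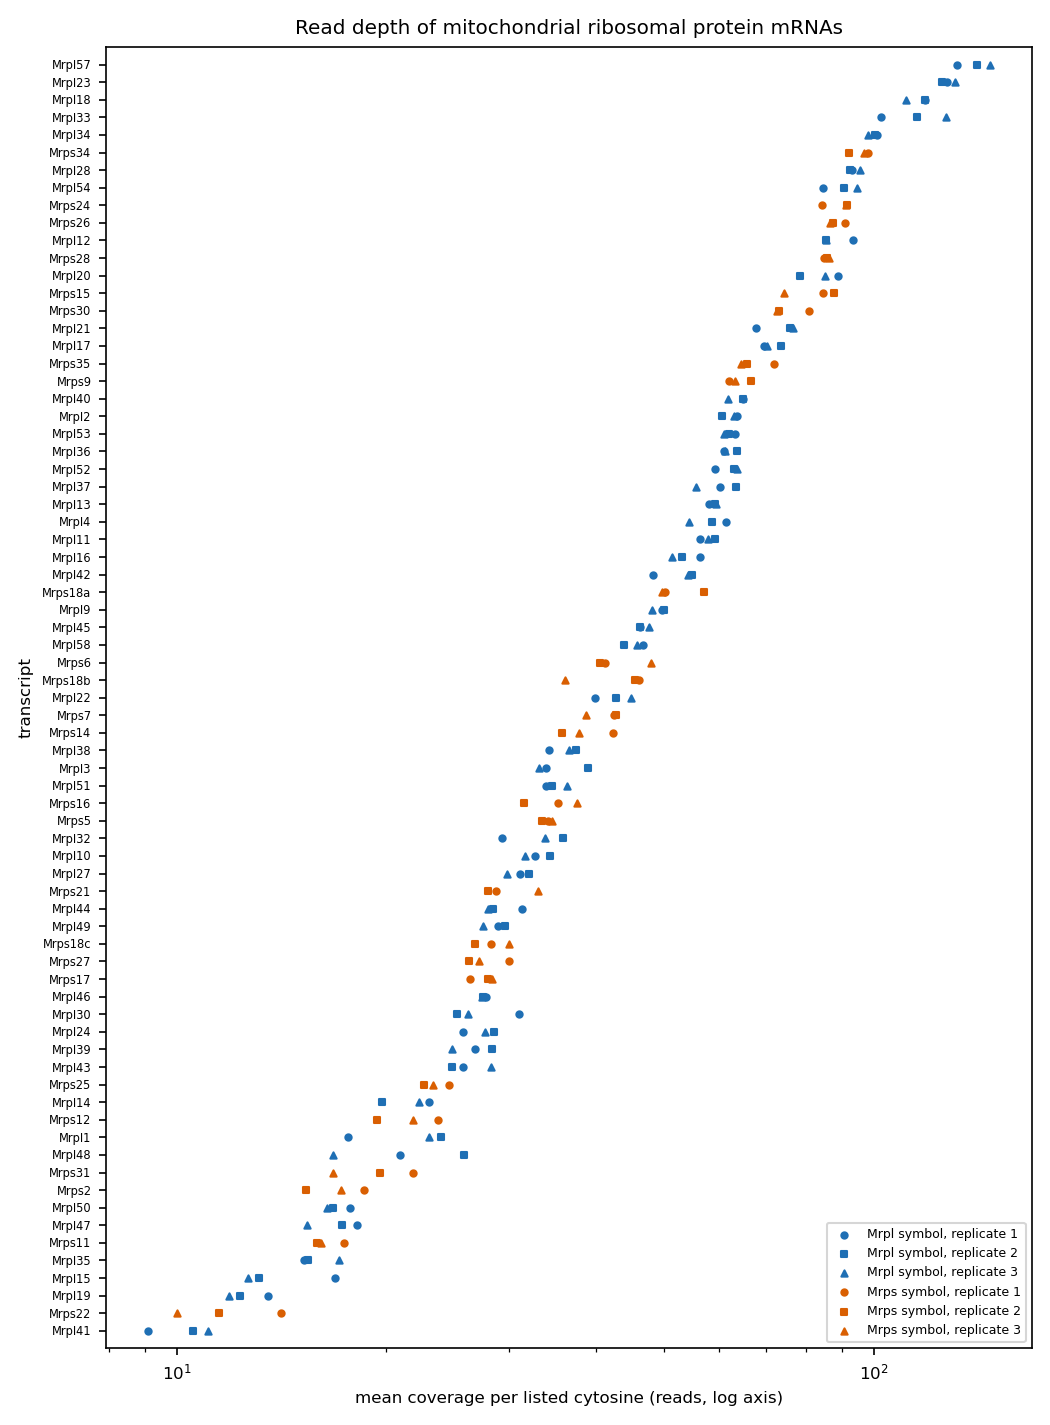
Mean coverage per listed cytosine (reads, log axis) of the 73 member transcripts with at least 20 testable cytosines, with 1 point per replicate, coloured by symbol prefix. The 3 points of a transcript lie close together, from Mrpl41 near 10.3 reads to Mrpl57 near 139.8.

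A few members could hardly be read. Mrps36 and Mrpl55 had no testable cytosine: Mrps36 had 25, 23 and 21 listed cytosines, and Mrpl55 had 5 in replicate 2 only. Mrpl1, Mrps10, Mrps23 and Mrps33 had more than 1 listed transcript, and Mrps10, Mrps23 and Mrps33 had 12, 8 and 14 testable cytosines. The 24 genes with several protein-coding models in the reference table had a median of 113.5 testable cytosines, the 54 with a single model 151.5. Fewer than 100 cytosines were listed in 7 of the former and 3 of the latter. Whether reads of such genes were divided between models was not tested. For Mrps36 the table also holds 3 pseudogenes.

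Position along the mRNA was examined next. In the first 50 bases the members had 460 testable cytosines with an unconverted share of 1.42% ± 0.127, against 1.34% ± 0.0575 in other transcripts (SD, n = 3). Taken within each library, the members were higher in 3 of 3, by 0.106, 0.148 and 0.00463 percentage points (mean 0.0860 ± 0.0736 SD, n = 3). From 51 to 100 bases the difference was 0.0161 ± 0.0511, higher in 2 of 3 libraries. Beyond 100 and up to 300 bases the members were lower in 3 of 3, at 1.47% against 1.52%, a difference of -0.0498 ± 0.0113. Beyond 300 and up to 600 bases it was -0.00679 ± 0.0429, higher in 1 of 3. Beyond 600 bases the members were higher in 3 of 3, by 0.0128 ± 0.00210. The direction thus was not the same along the mRNA, and with 3 libraries none of these differences can reach an exact p below 0.25. Of the 4 candidates, 2 lay between 51 and 100 (Mrps9 and Mrpl54) and 2 beyond 600. Cytosines with a listed cytosine on both sides had 1.32% ± 0.0929 in members, and those with none had 1.51% ± 0.0449, lower in runs in each of the 3 libraries. In the other transcripts the value in runs was 1.32% ± 0.0664, also lower in each library than with no neighbour.

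The matched first bases also gave the sequence context up to position 48. In 27 member transcripts there were 70 testable cytosines in CG, 56 in CHG and 81 in CHH, where H is any base but G. CG cytosines were unconverted at 1.88%, 1.76% and 1.37% in replicates 1, 2 and 3, CHG cytosines at 1.60%, 1.31% and 0.832%, and CHH cytosines at 1.01%, 1.28% and 1.08%. The CG share was above the CHH share in every library, with means of 1.67% ± 0.268 and 1.13% ± 0.138 (SD, n = 3). In the other transcripts CG was also above CHH in every library, at 1.40% ± 0.0878 against 1.30% ± 0.0510. The member values rest on 22997 reads in all, and on few unconverted ones. No exact sign-flip p below 0.25 is possible here either. None of the 207 member cytosines was a candidate.

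The windows with the highest shares among the matched members rest on few reads. The 4 highest of these between positions 11 and 40 are shown, with the measured cytosine in capitals. Position 11 of Mrpl13, at 10.5%, was higher but had no matched sequence.
Mrpl33, position 32, chr5:31613972-31613992 (+): aggcgggtctCggtgagaatc
Mrpl36, position 15, chr13:73331013-73331033 (+): actgcgcagaCgcggaagctt
Mrpl9, position 23, chr3:94443348-94443368 (+): gtcatggcggCctctgtggct
Mrps18a, position 40, chr17:46111033-46111053 (+): gctctggtgtCaggctgcggg
Mrpl33 had 1 of 10, 1 of 14 and 1 of 19 unconverted reads, and Mrps18a 1 of 22, 2 of 22 and 1 of 21. Mrpl9 had 1 of 10, 0 of 10 and 1 of 10. In Mrpl36 all 3 unconverted reads came from replicate 1, with 3 of 14, 0 of 10 and 0 of 13. None passed the combined exact binomial test (adjusted p = 1 in each, n = 3).

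**Figure D4:**
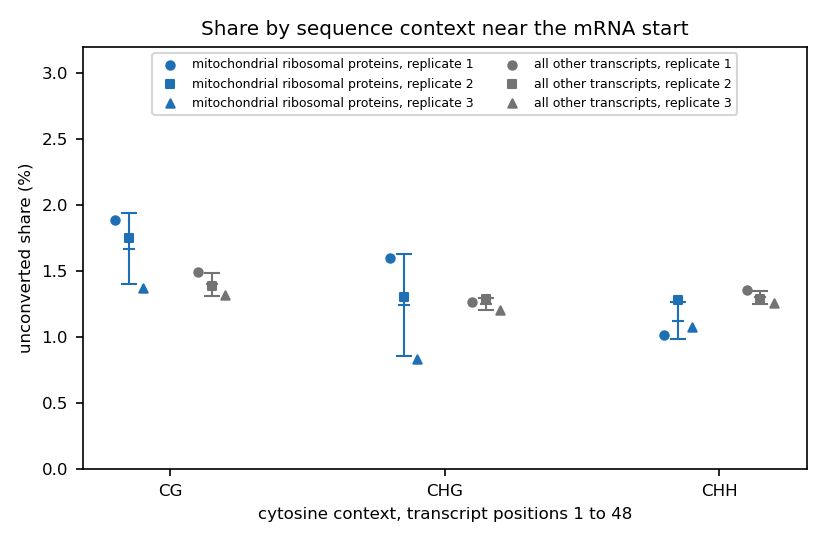
Unconverted share (%) of testable cytosines at transcript positions 1 to 48 by sequence context, for member transcripts and all other transcripts with matched sequence; points are the 3 replicates and bars the mean ± SD. The member means fall from 1.67% in CG to 1.13% in CHH, with wider bars than the other transcripts.

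Related gene groups were read by the same rules, against a background of 0.0473% candidates over all testable cytosines. That background was 48.6 per 100000 with at least 20 reads in each library. With the highest of the 3 binomial p-values it was 6.65, and with the beta-binomial test 34.6. Cytosolic ribosomal protein mRNAs, with a median testable coverage of 692.5, 644 and 679 reads, had 17 candidates among 12336 testable cytosines, or 0.138%, and a share of 1.45% ± 0.0679 (SD, n = 3). With at least 20 reads in each library they had 11, and with the highest of the 3 binomial p-values 12. The members' share was higher in each library, by 0.0147 percentage points ± 0.0134. Nuclear-encoded oxidative phosphorylation subunits had 5 among 11534, or 0.0434%, and a share of 1.45% ± 0.0677. The members' share was also higher than that of these subunits in each library, by 0.0139 percentage points ± 0.0122. With 3 libraries neither difference can reach an exact p below 0.25. With at least 20 reads in each library these subunits had 5, and with the highest of the 3 binomial p-values 2. In limma 33 of 88 cytosolic ribosomal transcripts passed as higher (37.5%) and 25 as lower (28.4%). Of 82 oxidative phosphorylation transcripts, 10 passed as higher (12.2%) and 11 as lower (13.4%). The background over all transcripts was 6.43% higher and 8.33% lower. Depth differed between these groups and the members, and its part in these counts was not tested.

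Other genes of mitochondrial translation completed the picture. Of 6 mitoribosome proteins under other symbols, all had testable cytosines and 0 of 896 were candidates. In the combined exact test 40 of the 896 had an unadjusted p below 0.05 (4.46%, background over all transcripts 3.32%). The beta-binomial test also gave 0 candidates. In limma 1 of the 6 passed in each direction (16.7%), where the background was 6.43% higher and 8.33% lower. Gadd45gip1 was higher (log2 ratio 0.17 ± 0.0499 SE, limma adjusted p = 0.0176). Ptcd3, a pentatricopeptide protein of the small subunit, was lower (-0.21 ± 0.0345 SE, limma adjusted p = 6.80e-05). The 20 genes of ribosomal RNA modification and assembly with a testable cytosine had 0 candidates among 2229 testable cytosines, and 0 in the beta-binomial test. In the combined exact test 48 of the 2229 had an unadjusted p below 0.05 (2.15%, background 3.32%). There 1 of 20 transcripts passed limma, as lower, or 5% where the background was 8.33%. It was Tfb1m, which dimethylates mitochondrial small-subunit ribosomal RNA (-0.96 ± 0.245 SE, limma adjusted p = 0.00722). The 13 translation factors and cofactors with a testable cytosine had 6 candidates among 2005, or 0.299%, where the background over all transcripts was 0.0473%. Without replicates 1, 2 and 3 in turn the count was 6, 2 and 7. With at least 20 reads in each library it was 3, with the beta-binomial test 6, and with the highest of the 3 binomial p-values 0. Of the 6 in the main setting, 5 lay in Lrpprc between positions 314 and 326, with means of 11.1% to 17.7%. A single read can span several of these 5, so they are not separate counts behind the 0.299%. The other lay at position 747 of Oxa1l, which inserts proteins into the inner membrane. It had 11 of 82 reads pooled and 13.2% ± 8.24 (SD, n = 3, adjusted p = 0.000122, combined exact binomial test). In limma 1 of 11 passed, as lower, or 9.09% where the background was 8.33%. It was the elongation factor Gfm1 (-0.13 ± 0.0388 SE, limma adjusted p = 0.0176).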

How the data were processed

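Per the submitters' processing notes, BSMAP and the build mm9 were used; versions, counting step and annotation are not given there. Per the file headers, each deposited table lists cytosines by RefSeq mRNA and position, with coverage (a read count) and an unconversion ratio, which is a fraction from 0 to 1. No listed coverage is below 3. The ratio gave whole reads (within 1e-06) at 100% of cytosines. Symbols were matched by accession without version for 14932 of 15021 transcripts, using names of GRCm38.p6. The libraries are separate: 2.74% to 3.26% of testable cytosines had the same coverage and unconverted count in a pair.

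Members and lists were chosen with earlier results of these data known. Tests ran in Python 3.11.15 (scipy 1.17.1) and limma 3.58.1, with a pseudocount of 0.5 unconverted reads; log2 ratios are on that scale. Intervals are exact (Clopper-Pearson, 95%), and floors use 3 counts. Both tests were run on simulated counts with no spread between libraries beyond counting error. How they behave where such spread exists was not tested. Named were members with a candidate, the 10 with the most testable reads, up to 5 called by limma in each direction, the 5 cytosines with the highest share and the 5 with the lowest adjusted p, and members without testable cytosines or with several transcripts and list genes with a candidate (up to 4 per list). List genes called by limma, the sequence windows, and Mrpl33, Mrpl41 and Mrps6 were named after their values were seen. Alternatives changed the coverage and level minimums, the combination of p-values, the background, the pseudocount, the transcript size, the variance trend and the libraries used.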

Additional observations from a re-analysis of the deposited data

How the results depend on the processing

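The count of 4 member candidates stayed at 4 with a coverage minimum of 20 or 5 reads and with the transcript's own background. It was 3 with a beta-binomial background. In that order the members had 50.5, 29, 35.3 and 26.5 candidates per 100000 testable cytosines. All transcripts had 48.6, 34, 43.2 and 34.6. The count was 20 with a level minimum of 5%, or 177 per 100000 against 203 over all transcripts. With one of 20% it was 0, against 5.24 per 100000 over all transcripts. It was also 0 with the highest of the 3 binomial p-values, where 1 member cytosine at 10% or above had an unadjusted p below 0.05. Over all transcripts that setting gave 6.65 candidates per 100000. Leaving out 1 library gave 2 to 5 candidates, and without replicate 3 there were 2, of which 1 was among the 4. Without replicates 1, 2 and 3 in turn the members had 34.5, 42.4 and 17 candidates per 100000. All transcripts had 45.3, 42.8 and 46.6. The count of 8 member transcripts called by limma was 6 to 8 under every alternative run except the missing variance trend, which gave 0 (11 at an unadjusted p below 0.05). Over all transcripts the share called was 8.52% with all cytosines listed in all 3 libraries and 19.1% with a coverage minimum of 20 reads. The members' share in these settings was 8% and 11.4%, so its distance from the background depended on the setting. Without replicate 2 and without replicate 3, limma called 7 members each, of which 5 were among the 8. The share of members minus that of other transcripts moved by less than its SD in all 7 alternatives run, but its sign was not stable: it was -0.00181 percentage points as a median over transcripts, -0.000387 without replicate 3 and 0.0133 without replicate 2. Depth limits single cytosines. No paired analysis was possible because the samples form 1 group, with no second group to share replicate numbers; differences between sets of transcripts were taken within each library.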
